A study of Mus musculus with 6 samples.

Results

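The 10 enzymes described here assemble triglyceride, the storage lipid of the fat cell, from glycerol-3-phosphate and fatty acids. They are *Gpd1*, which makes glycerol-3-phosphate, the glycerol-3-phosphate acyltransferases *Gpam*, *Gpat3* and *Gpat4*, the acylglycerol-3-phosphate acyltransferases *Agpat2* and *Agpat3*, the lipins *Lpin1* and *Lpin2*, and the diacylglycerol acyltransferases *Dgat1* and *Dgat2*. They were taken by name, as the rows with these gene symbols, and the list was chosen with earlier results of these data known. The rows are among the 55573 genes listed for inguinal white adipose tissue (iWAT), a subcutaneous fat depot under the skin of the groin. RNA-seq had been performed on iWAT of 3 mutant and 3 wild type (Wt) mice, 1 library per mouse. All 6 were untreated males of the C57BL/6NTac strain, 3 months old, on regular chow. The mutant mice were homozygous for a knock-in of the K283Q and K288R substitutions in the thyroid hormone receptor alpha gene *Thra*, which is meant to remove sites where the receptor is joined to SUMO, a small protein tag. The knock-in was global, so every tissue carried it and a difference in fat need not begin in the fat cell.

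In the glycerol-3-phosphate pathway, 1 fatty acid is added to glycerol-3-phosphate by a GPAT, another to the product by an AGPAT, the phosphate is removed by a lipin, and the last fatty acid is added by a DGAT. Each step is shared by several enzymes that differ in their place in the cell, and their use differs between tissues. White fat is one of the main sites of this pathway, and people who lack AGPAT2 or seipin, a protein that works beside the lipins, have very little fat.

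None of the 10 enzymes differed between the genotypes past the threshold used, a false discovery rate (FDR) of 0.05. Log2 fold changes, mutant minus Wt, ran from -0.35 for *Lpin2* to 0.31 for *Dgat2* with a median of -0.13, and 8 were below 0. Over all genes tested the median was -0.05 and 56.6% were below 0. Of 5 ratios between enzymes of the same step, 1 had genotypes that did not overlap, that of *Dgat2* to *Dgat1*. Of 16427 genes set against *Dgat1*, 27.8% had ratios that did not overlap, 25.8% with mutant mice higher. *Dgat2* relative to *Dgat1* was 1.45-fold as high in mutant, compared to Wt, mice, and neither enzyme alone passed the test. The exact permutation p was 0.1, the smallest that 3 mice against 3 can give, and 0.5 when adjusted over the 5 pairs. Single genes were tested by limma (mean-variance trend) on log2(value + 0.5), with p-values adjusted by the Benjamini-Hochberg method over 16740 genes. It called 1345 of them, or 8.03%, with 5.43% higher and 2.6% lower in mutant mice (909 of 1345 higher, and 1007 of 1271 with scaling by library size only). Of the 10 enzymes it called 0, none had an unadjusted p under 0.05, and 0 were called by edgeR's quasi-likelihood test, by DESeq2 or by limma-voom on the recovered reads. With a replicate block by mouse number, limma called 1 of the 10, *Lpin2* (limma adjusted p = 0.0485).

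Values below are the deposited normalized values, which are reads on a gene as CPM with a further factor for each mouse (0.962 to 1.109). They were measured from 19607423 to 24228381 reads on genes per mouse. Each of the 10 enzymes had between 305 and 39421 reads in a mouse, far above the floor of 3 reads, which is a value of 0.126 to 0.157. *Thra* itself had values of 147, 128 and 117 in Wt mice 1, 2 and 3 and of 169.8, 139.9 and 136.7 in mutant mice 1, 2 and 3 (log2 fold change 0.19, limma adjusted p = 0.404). The span of *Thra* (chromosome 11, 98740638 to 98769006, plus strand) overlaps that of *Nr1d1* (98767932 to 98775333, minus strand). *Nr1d1* had means of 348 in Wt and 209 in mutant mice (limma adjusted p = 0.0583), and its part in the *Thra* values was not tested. The mutation is a change of codons, so the amount of *Thra* RNA does not check the genotype labels. That the tissue is fat was checked with 6 adipocyte markers, which do not check the depot. Their summed values were 12217 to 17473 in Wt and 10769 to 17038 in mutant mice, with 0 of 6 called. Fast muscle genes were abundant in every library (0 of 5 called, sum 10224 to 22377 in Wt and 14570 to 23380 in mutant mice). Their sum was above that of the adipocyte markers in every mouse except Wt mouse 3 (10224 against 12217). Lymphoid genes (0 of 5 called) summed to 263 to 578 in Wt mice, to 334 and 520 in mutant mice 2 and 3, and to 1.89 in mutant mouse 1, which stood apart. Without mutant mouse 1, 0 of the 10 enzymes were called, *Dgat2* had a log2 fold change of 0.16 and *Lpin2* of -0.24, and the *Dgat2* to *Dgat1* difference was 0.56 on the log2 scale. Of 5 mesothelial markers, 4 were called, all higher in mutant mice. Among these, *Upk3b* was at 0 to 1.09 in Wt and at 11.4 to 27.7 in mutant mice, and *Msln* at 0.146 to 0.715 and 6.28 to 12.6. The sums of the 5 were 4.72 to 31.2 in Wt and 29.6 to 63.7 in mutant mice. *Krt19*, the marker not called, made up 28.5 of the 31.2 in Wt mouse 1. Of 3 brown fat markers, 1 was called (*Ucp1*, lower), and the sums were 36.3 to 63.6 in Wt and 21.6 to 36.7 in mutant mice. Adipose progenitor genes (0 of 4 called) summed to 643 to 708 in Wt and 710.4 to 965 in mutant mice. Macrophage genes (0 of 4 called) summed to 525 to 594 and 489 to 604, and mammary epithelial genes (0 of 3 tested, *Csn2* at or near 0 in every mouse) to 2.72 to 28.6 and 1.92 to 6.01. Of 11 clock genes, 6 were called, with *Arntl*, *Clock* and *Npas2* higher and *Per2*, *Per3* and *Dbp* lower, and the hour at which the mice were killed is not given in the sources used here. These marker and clock lists were also chosen with earlier results of these data known. The part of these lists in the values of the 10 enzymes was not tested. In whole tissue, fewer fat cells and less RNA per fat cell cannot be told apart.

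The DNA before the start of the gene was read for 6 of the 10 enzymes, *Agpat2*, *Agpat3*, *Gpam*, *Gpat3*, *Lpin1* and *Lpin2*, from RefSeq promoters on GRCm38.p6. *Dgat1*, *Dgat2*, *Gpd1* and *Gpat4* were not matched. The 6 genes have 9 starts there. In the 250 bases before each start, 7 short motifs were searched on both strands. The 6 bases AGGTCA, the half-site bound by nuclear receptors such as the thyroid hormone receptors, were found before 2 of the 9 starts and in 14% of 32851 mouse promoters. The E-box CACGTG, bound by the clock proteins CLOCK and BMAL1 among others, was found before 1 start and in 6.02% of promoters. The 3 promoters that hold one of these are printed here because they hold letters that thyroid hormone receptors or clock proteins are known to bind. The other motifs were the GC box GGGCGG (5 of 9 starts, 32.7% of promoters), CCAAT (2 of 9, 33.8%), TATAAA (0 of 9, 12.4%), the CRE TGACGTCA (0 of 9, 1.55%) and the sterol element TCACNCCAC (0 of 9, 1.05%). Capitals mark the motif matches, read 5′ to 3′ along the gene's strand, and in these 3 sequences matches of different motifs do not overlap. A match is a string of letters and not a shown site of binding.
*Lpin1* (chr12:16610967-16611216, minus strand, AGGTCA 74 bases before the start): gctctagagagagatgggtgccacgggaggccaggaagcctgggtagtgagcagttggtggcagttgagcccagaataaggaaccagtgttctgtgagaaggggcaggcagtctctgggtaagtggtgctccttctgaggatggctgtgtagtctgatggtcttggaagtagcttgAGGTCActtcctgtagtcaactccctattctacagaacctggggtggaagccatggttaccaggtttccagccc
*Lpin2*, the first of 3 starts (chr17:71183282-71183531, plus strand, CACGTG 9 bases before the start and a GC box 24 bases before it): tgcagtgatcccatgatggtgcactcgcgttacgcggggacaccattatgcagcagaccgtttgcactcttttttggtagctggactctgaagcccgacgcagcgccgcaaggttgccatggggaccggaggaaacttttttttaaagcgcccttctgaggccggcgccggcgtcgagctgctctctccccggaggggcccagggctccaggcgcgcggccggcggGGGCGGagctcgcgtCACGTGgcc
*Gpam*, the second of its starts (chr19:55099478-55099727, minus strand, AGGTCA 196 bases before the start and a GC box on the other strand 16 bases before it): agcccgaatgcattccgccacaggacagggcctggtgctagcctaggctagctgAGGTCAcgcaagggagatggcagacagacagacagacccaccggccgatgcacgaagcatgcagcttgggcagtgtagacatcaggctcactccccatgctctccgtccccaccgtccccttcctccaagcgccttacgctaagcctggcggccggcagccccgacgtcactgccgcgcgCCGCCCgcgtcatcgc
The 3 genes with these letters had log2 fold changes of -0.13 (*Lpin1*), -0.35 (*Lpin2*) and 0.07 (*Gpam*), none past the FDR.

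*Gpd1* (ENSMUSG00000023019, chromosome 15, 99717515 to 99725005, plus strand, GRCm38) reduces dihydroxyacetone phosphate to glycerol-3-phosphate and so supplies the backbone of the lipid. Its values were 1652, 1169 and 1134 in Wt mice 1, 2 and 3, compared to 1594, 1036 and 1059 in the mutants of these numbers. Mouse 1 was high in both genotypes and the genotypes overlapped. The log2 fold change was -0.11 ± 0.24 (SE, n = 3 per genotype; limma adjusted p = 0.805), and the 95% interval of the fold ran from 0.618 to 1.39.

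The glycerol-3-phosphate acyltransferases catalyse the first acylation, *Gpam* at the mitochondrion and *Gpat3* and *Gpat4* at the endoplasmic reticulum. *Gpam* (ENSMUSG00000024978, chromosome 19, 55067268 to 55127238) had values of 240.2, 185 and 177 in Wt, compared to 236, 197 and 194 in mutant, mice, and its log2 fold change was 0.07 ± 0.15 (limma adjusted p = 0.795). *Gpat3* (ENSMUSG00000029314, chromosome 5, 100845713 to 100899102) had values of 109.7, 81.6 and 72.3 in Wt, compared to 99.3, 78.0 and 73.3 in mutant, mice (log2 fold change -0.06 ± 0.19, adjusted p = 0.854 by limma). *Gpat4* (ENSMUSG00000031545, chromosome 8, 23171265 to 23208346) had values of 219, 175 and 178 in Wt, compared to 204, 168 and 150.2 in mutant, mice (log2 fold change -0.14 ± 0.15, limma adjusted p = 0.585). In all 3 the genotypes overlapped and mouse 1 of each genotype was the highest. The 95% intervals of the fold reached from 0.822 to 1.34 for *Gpam*, from 0.703 to 1.3 for *Gpat3* and from 0.713 to 1.16 for *Gpat4*.

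The acylglycerol-3-phosphate acyltransferases turn lysophosphatidate into phosphatidate. *Agpat2* (ENSMUSG00000026922, chromosome 2, 26593057 to 26604417), the form that fat cells depend on, had values of 569, 379 and 422 in Wt, compared to 469, 345 and 307 in mutant, mice. The lowest value was in a mutant mouse and the highest in a Wt mouse, but mutant mouse 1 lay above Wt mice 2 and 3. The log2 fold change was -0.29 ± 0.21 (limma adjusted p = 0.437; 95% interval of the fold 0.572 to 1.17). *Agpat3* (ENSMUSG00000001211, chromosome 10, 78269178 to 78352489) had values of 247, 203 and 205 in Wt, compared to 225, 181 and 193 in mutant, mice. Its log2 fold change was -0.13 ± 0.12 (limma adjusted p = 0.533), with the genotypes overlapping.

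The lipins remove the phosphate from phosphatidate, and *Lpin1* is the form that is typical of fat and muscle. *Lpin1* (ENSMUSG00000020593, chromosome 12, 16535669 to 16610966) had values of 438, 335 and 312 in Wt, compared to 386, 309.7 and 294 in mutant, mice (log2 fold change -0.13 ± 0.17, limma adjusted p = 0.660). *Lpin2* (ENSMUSG00000024052, chromosome 17, 71182560 to 71249817) had values of 22.1, 22.3 and 28.3 in Wt, compared to 16.0, 19.7 and 20.8 in mutant, mice. It was the only enzyme of the 10 whose genotypes did not overlap, against 30.6% of all genes tested, with 15.7% lower and 14.9% higher in mutant mice. The log2 fold change of *Lpin2* was -0.35 ± 0.15 (unadjusted p = 0.0521, limma adjusted p = 0.212), and the 95% interval of the fold was 0.612 to 1. By exact permutation, two-sided, p was 0.1.

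The diacylglycerol acyltransferases add the last fatty acid, and the proteins DGAT1 and DGAT2 are unrelated in sequence although they catalyse the same step. *Dgat1* (ENSMUSG00000022555, chromosome 15, 76502015 to 76511953) had values of 202, 156 and 158 in Wt, compared to 181, 139.9 and 120.4 in mutant, mice. *Dgat2* (ENSMUSG00000030747, chromosome 7, 99153658 to 99182719) had values of 1568, 1119 and 1081 in Wt, compared to 1873, 1545 and 1239.8 in mutant, mice. For *Dgat1* the mutant values lay to the low side (log2 fold change -0.23 ± 0.18, limma adjusted p = 0.450), and for *Dgat2* to the high side (0.31 ± 0.23, limma adjusted p = 0.445), and in both the genotypes overlapped through the high values of mouse 1. The interval of the fold of *Dgat2* ran from 0.841 to 1.82 and that of *Dgat1* from 0.632 to 1.15.

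**Figure D1:**
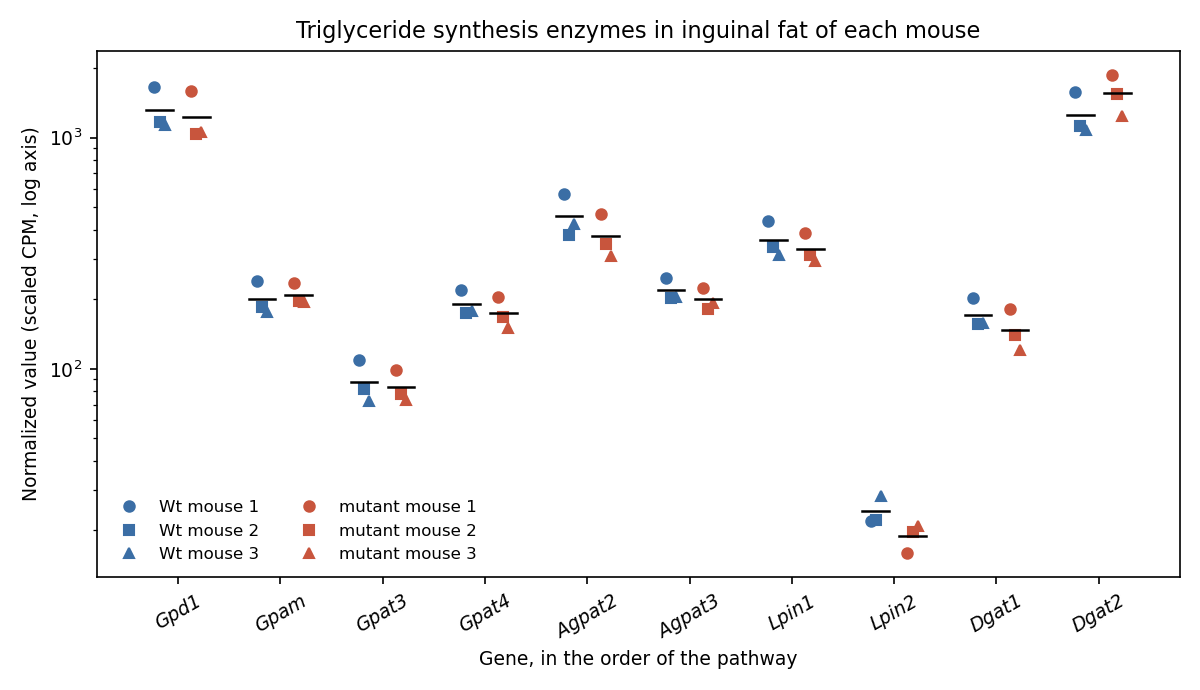
Normalized value of each of the 10 enzymes (log axis, scaled CPM) in every mouse, with Wt mice in blue, mutant mice in red, a marker shape for each mouse number and a black bar at the genotype mean. The genotypes overlap for 9 of the 10 genes, *Lpin2* being the other, and mouse 1 is the highest of its genotype for 9 of 10.

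Mouse 1 of each genotype had the highest value of its genotype in 9 of the 10 enzymes, the exception being *Lpin2*, which was highest in mouse 3 of both. The spread within a genotype was 1.21-fold to 1.54-fold from the lowest to the highest mouse. The adipocyte markers followed the same mice. Wt mouse 1 was the highest Wt mouse in 6 of 6 markers, and mutant mouse 1 was the highest mutant mouse in 5 of 6, with *Lep* highest in mutant mouse 2. The summed value of the 10 enzymes was 5267, 3826 and 3767 in Wt mice 1, 2 and 3, compared to 5283, 4021 and 3652 in the mutants, that is 0.396% to 0.519% of all values in a mouse. *Dgat2* alone made up 29.8%, 29.2% and 28.7% of this sum in Wt mice and 35.5%, 38.4% and 33.9% in mutant mice. The difference in this percentage was not tested or set against other genes.

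**Figure D2:**
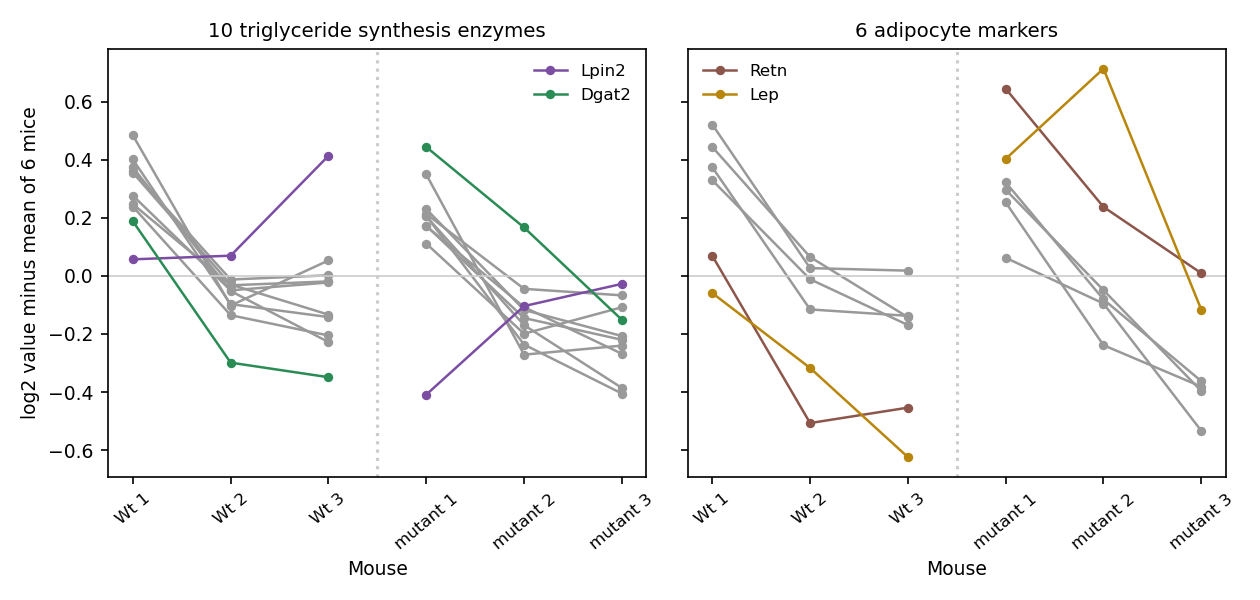
Log2 value of each gene minus its mean over the 6 mice, for the 10 enzymes (left) and 6 adipocyte markers (right), with mice on the horizontal axis, 1 line per gene and genotype, and selected genes in colour. Most enzymes and most markers are high in mouse 1 of both genotypes, while *Lpin2* is high in mouse 3, and the lines join values of 1 gene and do not order the mice.

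A ratio of 2 enzymes within a mouse does not change with the scaling of that mouse, so 5 pairs were compared. The ratio of *Dgat2* to *Dgat1* was 7.77, 7.18 and 6.86 in Wt, compared to 10.3, 11.0 and 10.3 in mutant, mice. Every mutant mouse lay above every Wt mouse, and the log2 ratio was 2.86 ± 0.09 (SD, n = 3) in Wt and 3.40 ± 0.06 in mutant mice. They differed by 0.54 (p = 0.1 by exact permutation, two-sided, and 0.5 when adjusted over the 5 pairs). Among the other genes above 0 in every mouse, 27.8% of 16427 also had ratios to *Dgat1* that did not overlap, 25.8% with mutant mice higher, and in 14% they were higher by at least as much as for *Dgat2*.

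In the other 4 pairs the genotypes overlapped. *Lpin1* exceeded *Lpin2* by 11.0-fold to 19.8-fold in Wt mice and by 14.1-fold to 24.1-fold in mutant mice (difference of the log2 ratio 0.23, exact permutation p = 0.5 over n = 3 per genotype). *Gpat3* to *Gpat4* differed by 0.07 (exact p = 0.7) and *Gpam* to *Gpat3* by 0.13 (exact p = 0.2). The ratio of *Agpat2* to *Agpat3* was 2.31, 1.87 and 2.06 in Wt, compared to 2.09, 1.91 and 1.59 in mutant, mice, a difference of -0.16 (exact p = 0.5).

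**Figure D3:**
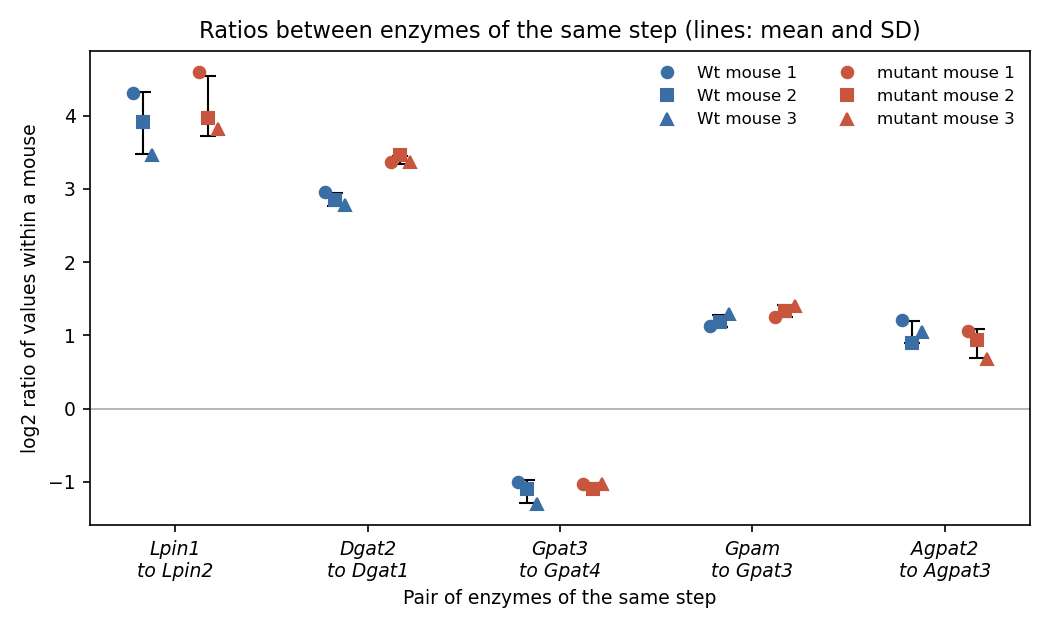
Log2 ratio of the values of 2 enzymes of the same step within each mouse, Wt in blue and mutant in red, with black lines for the mean and SD of 3 mice. Only for *Dgat2* to *Dgat1* do the 3 mutant mice (mean 3.40) lie apart from the 3 Wt mice (mean 2.86).

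The enzymes were also set against the adipocyte markers of the same mouse, a scaling added after the data were examined. Relative to the mean log2 value of the 6 markers, *Dgat2* was at -0.30, -0.36 and -0.30 in Wt mice and at -0.09, -0.12 and -0.06 in mutant mice, a difference of 0.23 with no overlap. *Agpat2* (-0.37) and *Dgat1* (-0.31) lay lower in mutant mice with no overlap, and the other 7 overlapped, so 3 of 10 stood apart, against 14.6% of all genes on this scale (9.48% higher and 5.08% lower). By limma on this scale 0 of the 10 were called, against 2.47% of all genes (2.19% higher and 0.287% lower), and *Dgat2* had an adjusted p of 0.436. *Lep* and *Retn*, which are among the 6, had log2 fold changes of 0.67 and 0.59 (limma adjusted p = 0.173 and 0.175). Without them, relative to the other 4 markers, *Dgat2* was at -0.98, -1.04 and -0.99 in Wt mice and at -0.54, -0.47 and -0.48 in mutant mice, a difference of 0.51 (limma adjusted p = 0.0213). It was then the 1 enzyme called, against 4.07% of all genes (3.94% higher and 0.125% lower), so nearly all calls on this scale were of genes higher in mutant mice. The 2 markers left out were those with values to the high side in mutant mice, and leaving them out moved every gene up. The median log2 fold change of all genes was -0.05 as reported, -0.13 relative to 6 markers and 0.15 relative to 4, and *Dgat2* lay 0.36 above that median on each scale. *Gpam* (0.27) and *Gpat3* (0.14) lay higher with no overlap on this scale and *Agpat2* and *Dgat1* overlapped, and of all genes 22.6% did not overlap (21.2% higher and 1.38% lower). *Dgat2* was the one enzyme whose genotypes stood apart on both scales, but the scales share 4 markers, and in the values as reported its genotypes overlapped. The share of all genes that stood apart on both scales was not worked out.

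Per kilobase of exon, the 10 enzymes ranged widely in level. *Dgat2* (mean over 6 mice 456 per kilobase) and *Gpd1* (430.2) were at the top, and *Dgat2* exceeded *Gpd1* in 0 of 3 Wt mice and in 3 of 3 mutant mice. This order was seen in the data, was not among the 5 pairs compared and was not tested. The share of all genes with such a separation from *Gpd1* was not worked out. *Agpat2* followed at 195, *Dgat1* at 52.2 and *Lpin1* at 35.8, each above the next in 6 of 6 mice. *Gpam* (30.8), *Gpat4* (27.3), *Agpat3* (26.8) and *Gpat3* (24.5) lay close together, and *Gpam* exceeded *Gpat4*, and *Gpat4* exceeded *Agpat3*, in 5 of 6 mice. *Lpin2* was the lowest at 1.76, 13.9 times below *Gpat3*. These levels divide by the length of all annotated exons of a gene, which overstates the transcript of genes with many isoforms.

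The other genes of the pathway were read from a list of 29, of which 28 were tested and *Gpat2*, at 0 to 0.328 in all mice, was not. Of these, 3 passed the FDR (10.7%, against 8.03% of all genes), and 13 had genotypes that did not overlap (46.4%, against 30.6% of all genes). The median log2 fold change of the 28 was -0.06. *Srebf1*, the transcription factor that drives genes of fatty acid synthesis, had values of 448, 343 and 339 in Wt, compared to 251, 196 and 199 in mutant, mice, and fell by 0.80 on the log2 scale (SE 0.16, limma adjusted p = 0.0306). *Agpat1*, a further enzyme of the second acylation, had values of 92.6, 92.6 and 88.6 in Wt, compared to 73.7, 60.9 and 65.7 in mutant, mice, and fell by 0.45 (SE 0.09, adjusted p = 0.0327 by limma).

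*Mogat2*, which makes diacylglycerol from monoacylglycerol by a separate route best known from the intestine, rose from 1.93, 1.17 and 1.26 in Wt mice to 4.72, 3.99 and 2.62 in mutant mice (log2 fold change 1.12 ± 0.25, limma adjusted p = 0.0474). It is a gene of low level, and its nearest member of the list is *Dgat2*, which lies on the same strand of chromosome 7, 36364 bases away. The fold of *Mogat2* on the log2(value + 0.5) scale understates the change of so low a gene, and it was 1.40 by edgeR's quasi-likelihood test, where the adjusted p was 0.0525. Leaving out 1 mouse ended some or all of these calls, but no log2 fold change of the 3 genes changed sign. They ran from -0.91 to -0.67 for *Srebf1*, -0.53 to -0.39 for *Agpat1* and 0.96 to 1.33 for *Mogat2*. None of the 28 was called without Wt mouse 1, 2 or 3 or without mutant mouse 2, *Mogat2* was the only one called without mutant mouse 3, and *Srebf1* and *Agpat1* remained without mutant mouse 1. Relative to the 6 adipocyte markers *Agpat1* was not called (adjusted p = 0.440 by limma), and relative to 4 of them neither *Agpat1* (0.717) nor *Srebf1* (0.0686) was.

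The 28 genes can be read by role. Among the 5 genes that supply glycerol-3-phosphate, 0 were called. *Pck1*, the most abundant and the key enzyme of glyceroneogenesis, the making of glycerol-3-phosphate from pyruvate, had values of 2773, 1852 and 1951 in Wt, compared to 1669, 995.5 and 1079 in mutant, mice (log2 fold change -0.83 ± 0.27, limma adjusted p = 0.127), with no overlap. Of the 4 acyl-CoA synthetases, which activate fatty acids, 0 were called, and *Acsl1*, the most abundant, had a log2 fold change of -0.29 (limma adjusted p = 0.480). Among 6 other acyltransferases tested, *Mogat2* and *Agpat1* were the 2 called. Of 4 genes of the lipin family and its activators 0 were called, and *Bscl2*, which encodes seipin, had a log2 fold change of -0.07 (adjusted p = 0.822, limma). Of 5 genes that lead phosphatidate or diacylglycerol into phospholipid 0 were called, with *Chpt1* at 0.09 (limma adjusted p = 0.864). Of 4 transcription factors 1 was called, *Srebf1*, and *Cebpa*, the most abundant and a driver of fat cell differentiation, had a log2 fold change of -0.32 (limma adjusted p = 0.326).

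**Figure D4:**
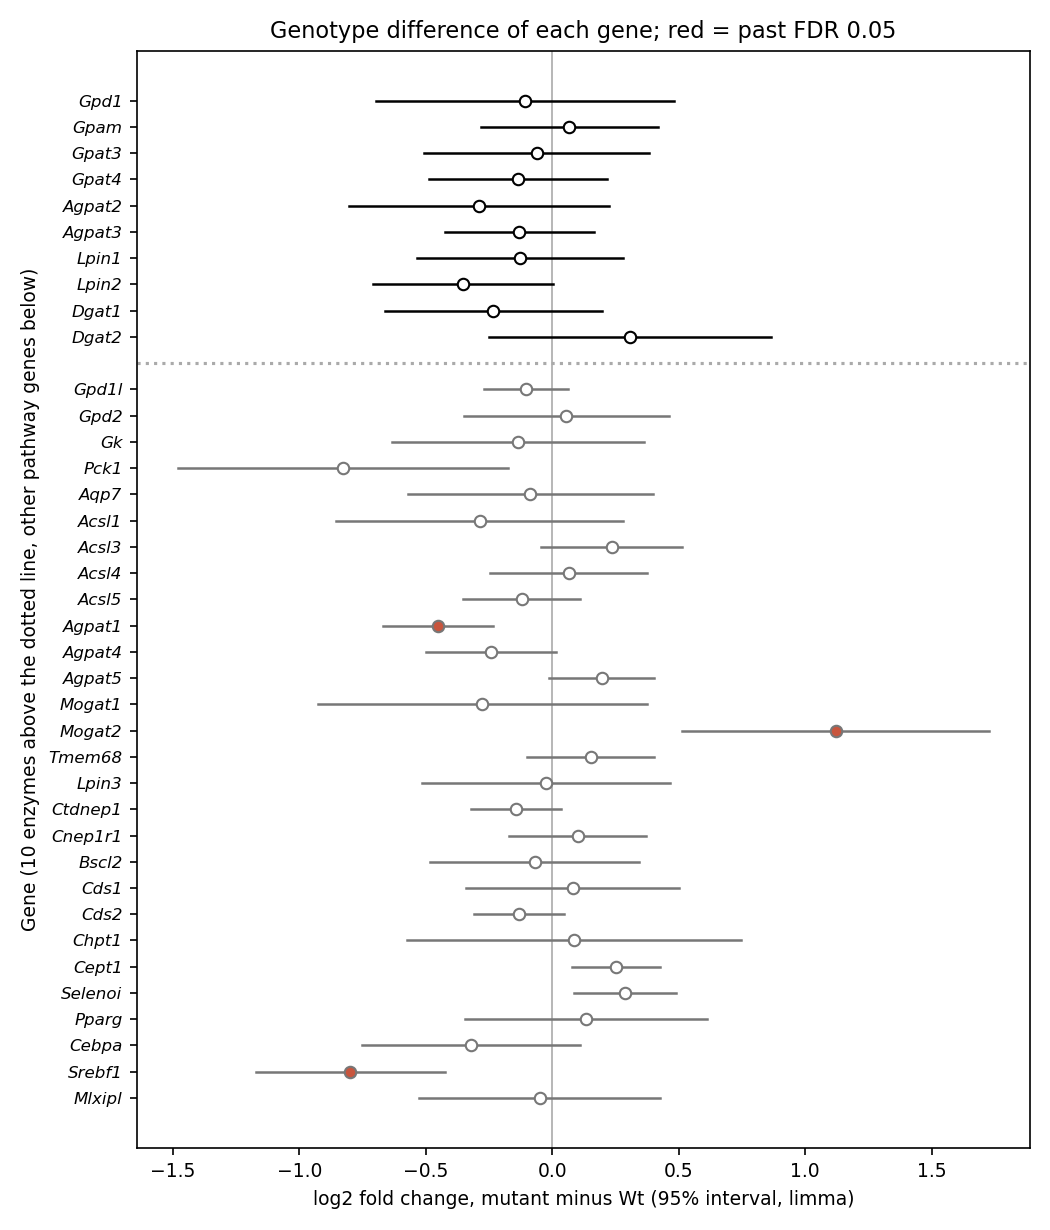
Log2 fold change (mutant minus Wt, horizontal axis) with its 95% interval from limma for the 10 enzymes, in black above the dotted line, and for 28 other genes of the pathway, in grey below it. Red points mark genes past the FDR of 0.05, of which there are 0 among the 10 and 3 among the 28, and the interval of *Lpin2* just reaches 0.

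Whether reads were counted by strand is not given in the sources used here, and without strand reads from a gene and its antisense partner cannot be told apart. Exons of 4 of the 10 enzymes overlap exons on the other strand, *Agpat2* with *Egfl7* over 64 bases, *Gpd1* with *Gm16537* over 384, *Gpat3* with *4930458D05Rik* over 1052 and *Agpat3* with *Gm40709* over 16. *Gpat3* also shares 259 exonic bases with *Gm42987* on its own strand, which had 0.00197 times its value. In each case the partner was less abundant, at most 0.157 times the value of the enzyme (*Egfl7*). None of the 10, and none of the 29, was among the 1159 tested genes whose partner on the other strand was at least 10 times as abundant. Of those 1159 genes 563 were called, 561 of them higher in mutant mice, so they made up a large share of the background of 8.03%, and 328 genes were called when they were left out.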

How the data were processed

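RNA-seq values of iWAT from 3 mutant and 3 Wt mice were compared, grouped by the titles of the samples. The authors deposited a normalized signal, CPM times a factor for each mouse. The submitters' processing notes name Bowtie2 2.1.0, RSEM 1.2.15, edgeR and the build mm10, without their roles. Per the paper, a core facility made and analysed the libraries, and the use of strand is not given in the sources used here. In each mouse 100.0% of values, within 0.01, came out as whole numbers of reads, so reads were recovered. The scaling factors multiply to 1.13 over Wt, 1.14 over mutant and 1.29 over all 6 mice, not to 1, so the set of libraries they were computed on is not known. Between libraries of 1 genotype, chi-square over its degrees of freedom was 17.5 to 59.1, more than sampling noise gives, and all were kept as separate samples. One mouse gave 1 library, and floors from reads cover counting error only. The intervals of the fold changes came from limma over 3 mice per genotype, so they include variation between mice.

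Genotypes were compared with limma 3.58.1 (R 4.3.3) on log2(value + 0.5) with a mean-variance trend, over the genes that the filterByExpr function of edgeR 4.0.16 retained, with Benjamini-Hochberg adjustment and an FDR of 0.05. Ratios within a mouse were compared by exact two-sided permutation. The limma step was tested on simulated data of 16740 genes for mutant against Wt. It recovered 92 of 111 genes changed by 2 on the log2 scale and 28 of 89 changed by 1, with 12 false calls beside the 120 recovered. Genes were simulated independently, without a shift shared by the genes of a mouse. Changes as small as those of the 10 enzymes (-0.35 to 0.31) were not simulated, so it does not show whether they could be detected. Alternatives were other scalings, edgeR, DESeq2 1.42.0 and limma-voom on reads, other filters, a pseudocount of 0.1 or 1, a replicate block, an FDR of 0.1, removal of genes overlapped on the other strand and leaving out each mouse. Scaling to adipocyte markers was added after the data were examined. Coordinates, exonic lengths and overlaps (bedtools 2.31.1) came from GENCODE M21 on GRCm38, the assembly of mm10, which held 55480 of 55573 identifiers (99.8%). In 27 rows a gene symbol had become a date. Promoter sequences came from RefSeq (GRCm38.p6). Python 3.11.15, pandas 2.3.3, SciPy 1.17.1 and Matplotlib 3.10.9 were used. The 10 enzymes and the other lists were chosen with earlier results of these data known. The genes named were all 10 enzymes and, of the other pathway genes, those past the FDR and the most abundant of each role.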

Additional observations from a re-analysis of the deposited data

How the results depend on the processing

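With 3 mice per genotype the SE of the 10 log2 fold changes was 0.12 to 0.24, and the 95% intervals set what could be seen. Over the settings other than leaving out mice, 132 of 140 values of the enzymes kept their direction and their side of the threshold. Relative to 4 adipocyte markers, *Gpd1* (0.0926), *Gpat3* (0.14), *Gpat4* (0.0648), *Agpat3* (0.0702), *Lpin1* (0.0723) and *Bscl2* (0.13) changed sign and *Dgat2* was called (1 enzyme of 10), and relative to 6 markers *Gpam* (-0.0087) changed sign. Such a scaling moves every gene of a mouse by the same amount. All genes called were 1345, against 2106 by DESeq2, 598 with at least 10 reads in every mouse, 328 without genes overlapped on the other strand, 2217 at an FDR of 0.1, 414 relative to 6 markers, 681 relative to 4 and 541 to 1042 when 1 mouse was left out (541 without Wt mouse 2). Pathway genes called were 3, against 6 by DESeq2, 0 without overlapped genes, 5 at an FDR of 0.1 and 0 to 2 when 1 mouse was left out. Without overlapped genes the log2 fold changes of *Srebf1* (-0.80), *Agpat1* (-0.45) and *Mogat2* (1.12) were unchanged. Only their limma adjusted p moved past the threshold, to 0.0638, 0.0653 and 0.0803. The cause of the other changes in these counts was not tested.

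Leaving out 1 mouse gave 0 enzymes called in all 6 fits. Log2 fold changes then ran from -0.31 to 0.0655 for *Gpd1* (sign changed without Wt mouse 1 and mutant mouse 2), -0.0218 to 0.20 for *Gpam* (Wt mouse 3, mutant mouse 1), -0.19 to 0.11 for *Gpat3* (Wt mouse 1, mutant mouse 3) and -0.25 to 0.0173 for *Lpin1* (Wt mouse 1). Those of *Bscl2* (-0.19 to 0.0842) and *Chpt1* (-0.15 to 0.27) changed sign too, and those of the other 6 enzymes did not. The log2 ratio difference ran from -0.0009 to 0.44 for *Lpin1* to *Lpin2*, -0.0107 to 0.14 for *Gpat3* to *Gpat4* and 0.50 to 0.59 for *Dgat2* to *Dgat1*.

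Both genotypes have mice numbered 1, 2 and 3, but they are different animals. The sample titles state no pairing, so the main fit did not pair them. The deviations of same-numbered mice nevertheless correlated at 0.69, 0.06 and 0.56. Whether same-numbered mice share a step of handling is not given in the sources used here and was not tested. A replicate block by mouse number called 4042 genes, 1 of the 10 enzymes (*Lpin2*, limma adjusted p = 0.0485) and 7 pathway genes, and the ratio of *Dgat2* to *Dgat1* differed by the same 0.54.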

Other observations

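At the branch where diacylglycerol leaves for phospholipid instead of triglyceride, *Cept1* and *Selenoi* had genotypes that did not overlap, against 30.6% of all genes tested. They join diacylglycerol to choline or ethanolamine head groups, and both were named after their values were seen. Of the 5 genes that lead phosphatidate or diacylglycerol into phospholipid, *Chpt1*, the most abundant, and *Cds1* overlapped. *Cds2* lay lower in mutant mice with no overlap (log2 fold change -0.13, limma adjusted p = 0.330). *Cept1* had values of 44.0, 45.0 and 42.9 in Wt, compared to 55.3, 50.9 and 51.1 in mutant, mice (log2 fold change 0.25, limma adjusted p = 0.0959). *Selenoi* had values of 32.6, 32.4 and 30.3 in Wt, compared to 41.5, 38.9 and 36.5 in mutant, mice (log2 fold change 0.29, limma adjusted p = 0.0959). They are the 2 genes that bring the count of pathway genes called from 3 to 5 at an FDR of 0.1. Exons of *Cept1* overlap those of *Dram2* (5 bases) and *Dennd2d* (771 bases) on the other strand, which had 1.37 and 0.815 times its value, and the part of these reads in its values was not tested.

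*Pck1*, the glyceroneogenic enzyme, was not called as reported, but it was called in 4 of 20 other settings, by DESeq2, with the replicate block and relative to 6 or 4 adipocyte markers, and its log2 fold change ran from -1.06 to -0.63 over the 20.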
